A study of Debaryomyces hansenii with 6 samples.

Results

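The step from 3 h to 6 h of osmotic stress was measured in the yeast Debaryomyces hansenii as the difference between the stress over control log2 ratios of the 2 arrays of 6 h and the 2 arrays of 3 h, 4 of the 6 arrays of the study. Cells had grown in the rich, glucose-containing medium YPD to an early log phase, and the stress was 2 M NaCl added to that culture. The control on every array was an aliquot frozen at time 0, before the salt, so all groups shared the medium and none was untreated at 3 h or 6 h. Each ratio therefore holds time in culture as well as salt, and these cannot be told apart. On each array 1 channel held stressed RNA and the other control RNA. The stressed RNA carried the dye Cy5 in replicate 1 and Cy3 in replicate 2, which was made from other biological replicates. Ratios were turned so that a positive value means more transcript under stress, and the difference is given as 6 h minus 3 h, so that a positive difference means a higher ratio at the later time. The array held 12640 probes for 6320 genes.

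D. hansenii is a halotolerant yeast known from brines and salted foods. It is known to tolerate sodium inside the cell and to build up glycerol as a compatible solute. In yeasts, a rise in external osmolarity first slows growth and activates the high-osmolarity glycerol (HOG) kinase pathway. A transient phase of gene expression is followed by an adapted state once turgor is regained, and the interval from 3 h to 6 h lies after the first shock. The array files describe each gene as unknown, and the reference table gave a locus name but no gene symbol for the genes matched, so the loci stand here by name only and no function is given for them. Lists of osmoregulation, ion transport, heat shock and ribosome genes could not be matched for the same reason.

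The 3 h arrays stood apart from the others in their control channels, and that of replicate 1 in its stressed channel as well. This touches every difference from them. The control RNA of all arrays was labelled time 0. The log2 signals of the control channel correlated across genes at r = 0.99 between the 0.5 h and 6 h arrays of replicate 1 and at r = 0.99 between those of replicate 2. The control of the 3 h array correlated with that of the 6 h array of its own replicate at 0.91 in replicate 1 and 0.94 in replicate 2. The SD across genes of the control difference was 0.50 from 3 h to 6 h in replicate 1 and 0.40 in replicate 2, against 0.19 and 0.20 from 0.5 h to 6 h. On the 3 h array of replicate 1 the log2 ratios of the 10 spike-in transcripts, which come from premade mixes, spanned 1.66, and they spanned between 3.21 and 4.20 on the other 5 arrays. Across the replicates, the controls of the 0.5 h and 6 h arrays correlated at 0.94 to 0.95. The 3 h controls were thus no closer to the other controls of their own replicate than controls of different biological replicates were to each other. The stressed signals of the 3 h array of replicate 1 correlated at 0.85 to 0.89 with those of the other 5 arrays. Those of the 3 h array of replicate 2 correlated at 0.94 to 0.96 with the remaining arrays. Among pairs without the 3 h array of replicate 1, the lowest was 0.88, between 0.5 h of replicate 1 and 6 h of replicate 2. Which arrays were hybridised with the same control RNA is not in the labels.

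**Figure D1:**
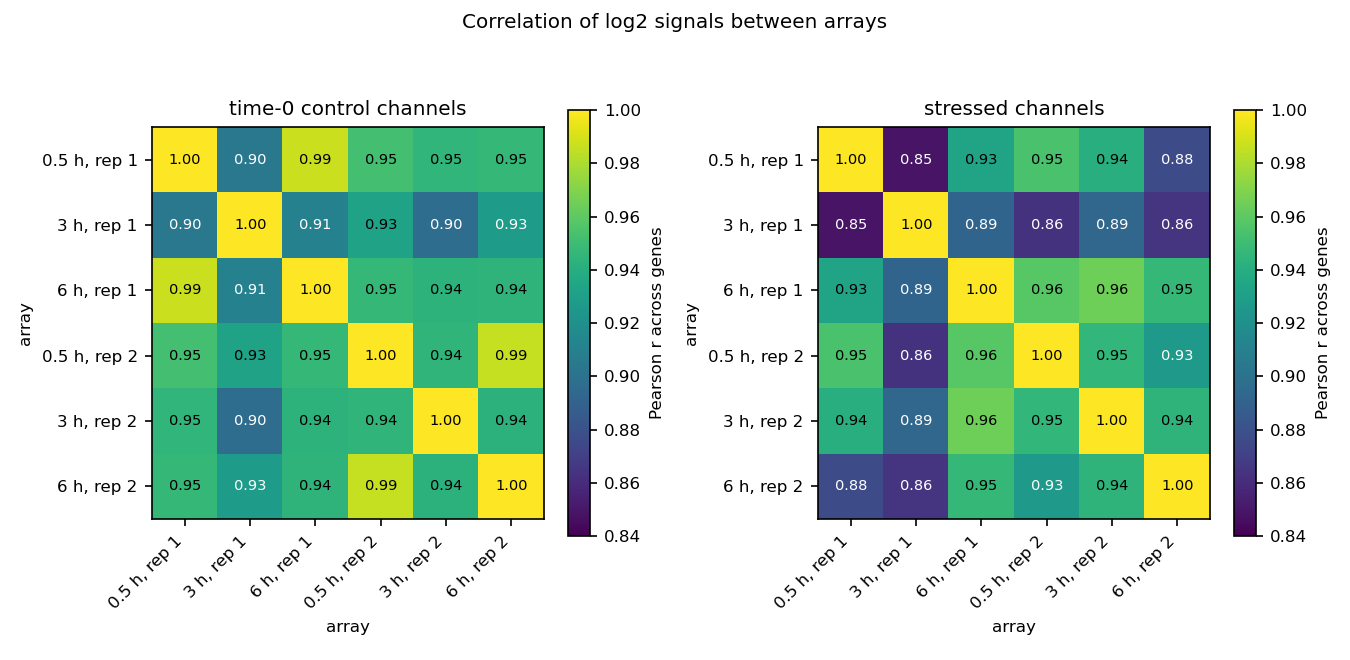
Pearson correlation across genes of the normalized log2 signals of each pair of the 6 arrays, for the time-0 control channels on the left and the stressed channels on the right. Among the controls, the 0.5 h and 6 h arrays of a replicate stand at 0.99, while the 3 h arrays lie between 0.90 and 0.95 with the others. Among the stressed channels, the 3 h array of replicate 1 lies between 0.85 and 0.89 with the others.

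The comparison asked which transcripts had moved between the middle and the late time. In limma 0 of the 5966 genes tested, or 0%, differed between 6 h and 3 h at an adjusted p under 0.05, and the smallest adjusted p was 0.215. At an unadjusted p under 0.05 there were 577 genes, or 9.67%, of which 220 (3.69%) were higher at 6 h and 357 (5.98%) were lower. With the replicate number as a block, 0 genes passed as well (smallest adjusted p 0.136), with 870 genes (14.6%) at an unadjusted p under 0.05, 346 higher (5.8%) and 524 lower (8.78%). Centring each array on its median in place of loess moved the median difference of all genes from -0.03 to 0.12 and turned the balance at an unadjusted p under 0.05 to 554 higher and 263 lower. The choice of probe did so too, since the dimmer probe of each gene gave 353 higher and 197 lower. The direction in which more genes lay is therefore not settled by these arrays.

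Most genes moved little. The differences of the tested genes had a SD of 0.39 on the log2 scale, and those between -0.27 and 0.20 made up the middle of the distribution, from the lower to the upper quartile. A log2 difference of 1 or more was reached by 44 genes upward and 67 downward. The 95% confidence interval of a gene's difference reached 0.55 to each side at the median. At the median gene, a change smaller than that could not be told from 0 with 2 arrays per time. Replicates 1 and 2 were different biological replicates by the labels, with the dyes swapped. Their differences correlated across genes at r = 0.34, and 63.9% of genes had the same sign in both. Within a replicate both arrays had the same dye orientation, so a dye bias that is constant for a gene cancels in its difference. Genes of 1 array are no independent samples, and these correlations are given without a p-value. A change in the level per cell and a change in the share of responding cells cannot be told apart in such cultures.

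**Figure D2:**
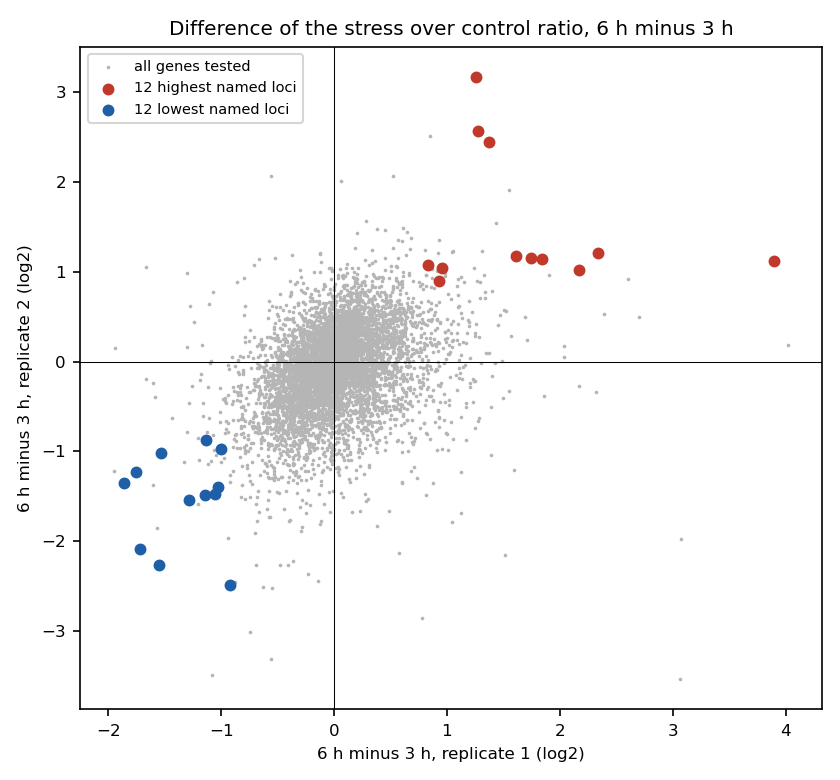
Difference of the log2 stress over control ratio, 6 h minus 3 h, in replicate 1 (horizontal axis) and replicate 2 (vertical axis), 1 point per gene tested. The cloud is weakly correlated (r = 0.34), and the named loci, chosen for like signs in both replicates, lie at its upper right and lower left ends.

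The loci described next are the 12 highest and the 12 lowest by limma's moderated statistic, among the 2448 genes with a locus name whose difference had the same sign in both replicates and on both of their probes. For all 24 the 6 h arrays lay wholly above or wholly below the 3 h arrays. This was so of 17.5% of all genes upward and 23% downward, and the rule favours it. Their adjusted p-values in limma ran from 0.215 to 0.433, and from 0.136 to 0.217 with the replicate block, so none passed.

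A group of loci stood near the control level at 3 h and well above it at 6 h. DEHA2C07370g had log2 ratios of 0.68 and 0.12 on the 3 h arrays of replicates 1 and 2, and of 1.94 and 3.29 on the 6 h arrays. Both late arrays lay above both middle ones, by a mean of 2.21 ± 0.47 (SE, 2 arrays per time), which is 4.63-fold. Its adjusted p of limma was 0.433, and its 95% interval ran from 1.12 to 3.31. The other probe of this locus gave 1.30. DEHA2E06908g had ratios of 0.30 and 0.19 at 3 h and of 1.67 and 2.63 at 6 h, a difference of 1.91 ± 0.38 (SE). DEHA2G03322g had ratios of 0.16 and -0.61 at 3 h and of 1.44 and 1.97 at 6 h, a difference of 1.93 ± 0.34 (SE). DEHA2A08800g had ratios of 0.16 and 0.74 at 3 h and of 2.33 and 1.76 at 6 h, a difference of 1.59 ± 0.36 (SE). All 4 were higher than the time-0 control at 6 h by limma (adjusted p 0.00633, 0.00565, 0.00915 and 0.00565), and their 3 h ratios did not pass (adjusted p 0.481, 0.601, 0.592 and 0.304). Leaving out the late array of replicate 2 ended each of the 4 calls, with adjusted p-values between 0.0694 and 0.172. At 6 h 271 genes (4.54%) were higher than the control at this threshold and 163 (2.73%) lower. At 3 h the controls of DEHA2C07370g, DEHA2E06908g and DEHA2G03322g were well above background on 1 of 2 arrays. At 0.5 h the 4 loci lay between -0.62 and 0.95 over both arrays.

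Other loci of the highest 12 were below the control at 3 h and at or above it at 6 h. DEHA2G21032g stood farthest below, with log2 ratios of -3.29 and -1.43 on the 3 h arrays. On the 6 h arrays it had 0.61 and -0.31, and at 0.5 h it had had -0.16 and 0.44. It was lower than the control at 3 h in limma (adjusted p 0.0208), as 124 genes (2.08%) were, and 243 (4.07%) were higher. Its difference of 2.51 ± 0.58 (SE, 2 arrays per time) was the largest upward one among the named loci, 5.68-fold, and came to 3.89 in replicate 1 and 1.12 in replicate 2. Leaving out the 3 h array of replicate 1 brought it to 1.58. Its call against the control at 3 h ended in 6 of 18 alternative settings. Using the arrays of 3 h and 6 h alone and leaving out either 0.5 h array gave identical results, so such tallies count that result more than once. The other probe of this locus gave 3.50 and 1.00 in the same replicates.

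DEHA2B13442g followed the same course, with ratios of -1.46 and -0.22 at 3 h and of 0.88 and 0.99 at 6 h. The replicates differed most at 3 h for this locus as well, and without the 3 h array of replicate 1 its difference was 1.16. DEHA2F12804g had ratios of -0.70 and -0.76 at 3 h and of 1.05 and 0.39 at 6 h. DEHA2G02640g had ratios of -0.72 and -0.59 at 3 h and of 1.13 and 0.55 at 6 h. Their differences were 1.78 ± 0.37, 1.45 ± 0.27 and 1.49 ± 0.31 (SE), and for these 3 loci no ratio to the control passed at 3 h or 6 h. DEHA2E20658g lay at -0.35 and -0.34 at 3 h and at 1.26 and 0.84 at 6 h, and was higher than the control at 6 h (adjusted p 0.0202 in limma). That call ended in 3 of 18 alternative settings, which were the processed signals and leaving out either 6 h array. DEHA2E03366g, DEHA2E13926g and DEHA2F01694g made the same passage on a smaller scale, with differences between 0.91 and 1.00. Of the 12 highest loci, 7 were below 0 on both 3 h arrays and above 0 on both 6 h arrays. Such a crossing is favoured by the rule for naming, and its share over all genes is not given here. The other probe gave an upward difference in both replicates for all 12, which the rule for naming favours. For DEHA2E03366g it gave 0.45 and 0.29 in the 2 replicates, less than 50% of the brighter probe's difference. At 3 h the control was well above background on 1 of 2 arrays for 6 of the 24 loci.

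**Figure D3:**
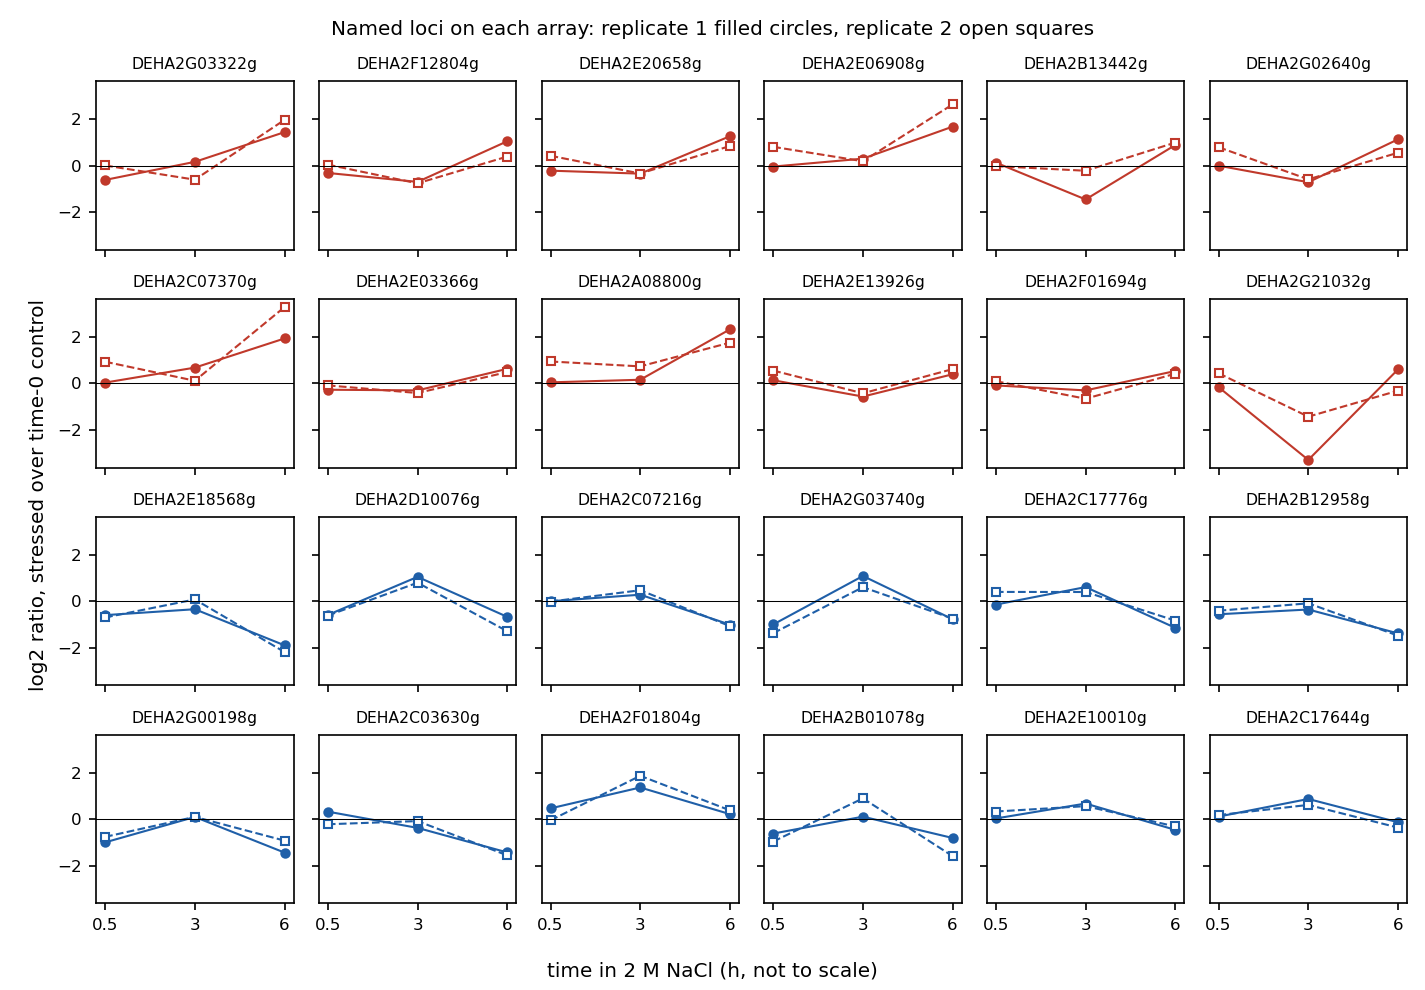
Log2 ratio of stressed over time-0 control RNA on each of the 6 arrays for the 24 named loci, by hours in 2 M NaCl, with filled circles for replicate 1 and open squares for replicate 2. The 12 highest loci (red) turn upward after 3 h in both replicates and the 12 lowest (blue) turn downward. Between 3 h and 6 h, 7 of the highest cross 0 upward and 8 of the lowest cross it downward on both arrays, which the rule for naming favours. DEHA2D10076g and DEHA2G03740g are the 2 called on opposite sides of the control at 3 h and 6 h.

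Among the lowest 12, DEHA2D10076g and DEHA2G03740g were called on opposite sides of the control at the 2 times. DEHA2D10076g had log2 ratios of 1.06 and 0.81 on the 3 h arrays and of -0.66 and -1.28 on the 6 h arrays. It was higher than the control at 3 h (adjusted p 0.0272 in limma) and lower at 6 h (0.0205). DEHA2G03740g had ratios of 1.09 and 0.61 at 3 h and of -0.77 and -0.74 at 6 h, with adjusted p-values of 0.0303 and 0.0408. These were the 2 genes of 5966 called against the control at both times in opposite directions. Both had also been below the control on both 0.5 h arrays, at -0.58 and -0.61 for DEHA2D10076g and at -0.99 and -1.37 for DEHA2G03740g, so that the 3 h arrays were the only ones with values above 0. The difference of DEHA2D10076g from 3 h to 6 h was -1.90 ± 0.26 (SE, 2 arrays per time), which is 3.74-fold, and limma gave it an adjusted p of 0.215. For DEHA2G03740g the difference was -1.61 ± 0.25 (SE) with an adjusted p of 0.293. Centring arrays on the median without loess brought the differences to -0.75 for DEHA2D10076g and -0.17 for DEHA2G03740g, and their 3 h ratios to 0.26 and 0.02. The other probe gave -1.13 for DEHA2D10076g. For DEHA2G03740g it gave -1.13 in replicate 1 and -0.06 in replicate 2. The calls against the control ended in 13 of 18 alternative settings at 3 h for each of the 2 loci, and at 6 h in 10 for DEHA2D10076g and 12 for DEHA2G03740g.

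On the brighter probe, a group of 5 of the lowest loci lay near the control at 3 h and below it at 6 h. DEHA2E18568g had ratios of -0.34 and 0.08 at 3 h and of -1.89 and -2.18 at 6 h. Its difference of -1.91 ± 0.23 (SE) was the lowest of the 24, 3.75-fold, but its other probe gave -0.06 and -0.27 in the 2 replicates. The 2 probes of this gene thus disagree in size. The other probe was also called lower than the control at 6 h, so it places the locus below the control at 3 h too. For this locus, the level near the control at 3 h rests on the brighter probe alone. DEHA2C07216g was close to 0 at 0.5 h, at 0.01 and -0.01, and had ratios of 0.29 and 0.48 at 3 h. At 6 h it had -1.0 and -1.06, a difference of -1.42 ± 0.20 (SE), with small spread between the arrays of each time, and its other probe gave -0.82. DEHA2B12958g went from -0.35 and -0.08 to -1.38 and -1.47, DEHA2C03630g from -0.37 and -0.07 to -1.42 and -1.55, and DEHA2G00198g from 0.10 and 0.11 to -1.43 and -0.92. These 5 loci were lower than the control at 6 h in limma, with adjusted p-values between 0.00171 and 0.00951. The call ended in 4 of 18 alternative settings for DEHA2C07216g, 2 for DEHA2C03630g, 2 for DEHA2G00198g, 1 for DEHA2B12958g and 0 for DEHA2E18568g. Leaving out the late array of replicate 2 ended the calls of DEHA2C07216g, DEHA2C03630g, DEHA2G00198g and DEHA2B12958g, and leaving out that of replicate 1 those of DEHA2C07216g and DEHA2G00198g. With median centring in place of loess, the 6 h minus 3 h difference was 0.24 for DEHA2C03630g, with the sign turned, and -0.74 for DEHA2E18568g and -0.85 for DEHA2C07216g.

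DEHA2C17776g and DEHA2B01078g had been at or above the control at 3 h and were below it at 6 h. The ratios of DEHA2C17776g were 0.62 and 0.41 at 3 h and -1.14 and -0.83 at 6 h. Those of DEHA2B01078g were 0.12 and 0.90 at 3 h and -0.80 and -1.58 at 6 h, and it had also been low at 0.5 h, at -0.61 and -0.95. At 6 h the stressed RNA of DEHA2C17776g was well above background on only 1 of the 2 arrays, which leaves its late ratio less certain. Both were lower than the control at 6 h (adjusted p 0.0202 and 0.0289 in limma), a call that ended in 3 of 17 alternative settings for DEHA2C17776g and 8 of 18 for DEHA2B01078g. The difference of DEHA2B01078g was -1.70 ± 0.35 (SE), and -1.0 with median centring.

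In DEHA2F01804g, a high 3 h level was followed by a return towards the control. Its ratios were 1.37 and 1.87 at 3 h, where it was higher than the control (adjusted p 0.0055 in limma), and 0.22 and 0.39 at 6 h. DEHA2C17644g was likewise higher at 3 h (0.88 and 0.62, adjusted p 0.0288) and lay at -0.13 and -0.36 at 6 h. Its call at 3 h ended in 11 of 17 alternative settings. DEHA2E10010g had ratios of 0.68 and 0.57 at 3 h, with an adjusted p of 0.0511, and of -0.45 and -0.31 at 6 h. The differences of these 3 loci were -1.32 ± 0.27, -0.99 ± 0.21 and -1.0 ± 0.21 (SE). The other probe of DEHA2F01804g gave -0.65. Median centring brought the differences of DEHA2F01804g and DEHA2E10010g to -0.40 and -0.48. The 3 h call of DEHA2F01804g ended without the 3 h array of replicate 2 and with the processed signals. Of the 12 lowest loci, 8 were above 0 on both 3 h arrays and below 0 on both 6 h arrays. At 6 h 9 of the 12 were called lower than the control, as 163 of all genes (2.73%) were. The rule for naming favours both counts, and the share of all genes that crossed 0 in this way is not given here. Since the 24 loci were taken for the difference on the same arrays, calls at 1 of its ends are no separate support for it. The other probe gave a smaller difference than the brighter one for all 12, and less than 50% of it for 3 of them. For the highest loci it was smaller in 5 of 12. Ranking on the brighter probe favours a smaller value on the other. Over the genes tested, the median difference was 0.06 with the dimmer probe and -0.03 with the brighter one.

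A difference between ratios can come from the stressed channel or from the control channel, and the 2 parts were read from the normalized log2 signals. In replicate 1 the SD across genes of the 6 h minus 3 h difference was 0.56 for the stressed channel and 0.50 for the control channel. In replicate 2 they were 0.41 and 0.40. The control channels, both of time-0 RNA, thus differed across genes nearly as much as the stressed ones. The stressed and control differences of replicate 1 correlated across genes at 0.68, as signals of the same spots can, and those of replicate 2 at 0.21. Between the replicates the stressed differences correlated at 0.06 and the control differences at -0.21, against 0.34 for the ratios.

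For the highest loci the stressed signal was higher at 6 h in both replicates in all 12. The rule for naming favours this, since the difference of ratios is the stressed difference minus the control one on the same spots. The share over all genes is not given here. DEHA2G21032g gained 3.93 and 1.63 in the stressed channel in replicates 1 and 2, while its control moved by 0.04 and 0.52. DEHA2E06908g gained 1.27 and 2.55 with a control that moved by -0.11 and 0.10. DEHA2B13442g gained 2.10 and 1.12 with control differences of -0.24 and -0.10. In these 3 loci most of the difference lay in the stressed RNA. DEHA2F01694g showed the reverse in replicate 1, where the stressed signal gained 0.17 and the control moved by -0.66.

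Among the lowest loci the 2 replicates differed more. DEHA2D10076g had stressed differences of -1.38 and -1.85, and its control moved by 0.34 and 0.24. DEHA2C07216g, with stressed differences of -0.78 and -0.94 and control differences of 0.51 and 0.60, behaved alike in both replicates. DEHA2G03740g had like stressed differences of -1.0 and -1.16, but its control moved by 0.86 in replicate 1 and 0.20 in replicate 2. DEHA2E18568g had a stressed difference of 0.05 and a control difference of 1.60 in replicate 1, and of -3.24 and -0.98 in replicate 2. For DEHA2C03630g in replicate 1 the stressed signal was unmoved at -0.01 while the control was higher by 1.04. The stressed signal of DEHA2B01078g was higher by 0.36 in replicate 1, with a control difference of 1.28, and lower in replicate 2 with a stressed difference of -3.08. In replicate 1 the control moved by more than the stressed signal in 7 of the 12 lowest loci and in 3 of the 12 highest. In replicate 2 it did so in 2 and in 1. The share of all genes for which this was so is not given here. Across all genes of replicate 1 the control differences spread nearly as widely as the stressed ones (SD 0.50 and 0.56). What part the 3 h control RNA, or the 3 h array of replicate 1 in both its channels, had in these differences was not tested.

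**Figure D4:**
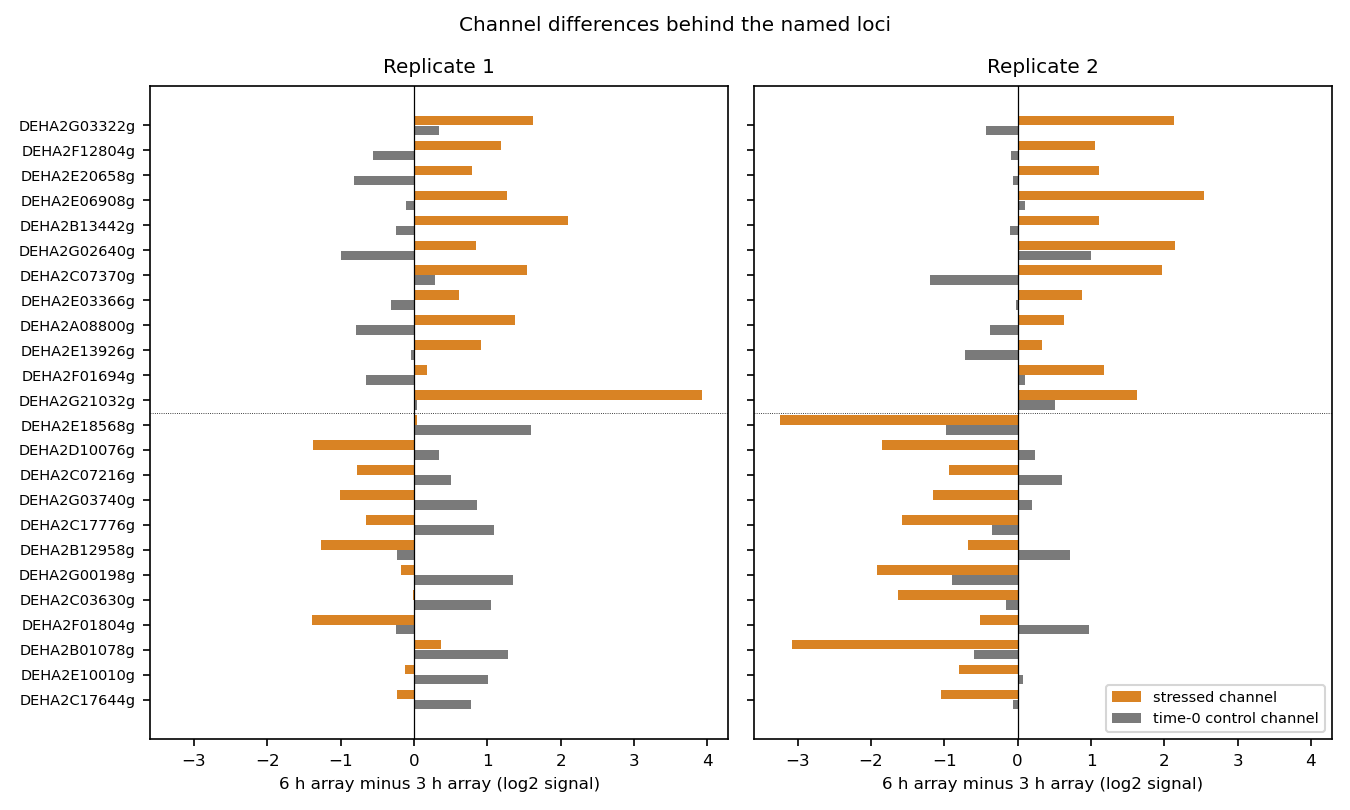
Difference of normalized log2 signal between the 6 h and the 3 h array for the 24 named loci, in replicate 1 (left) and replicate 2 (right), with orange bars for the stressed channel and grey bars for the time-0 control channel. Orange bars point the same way in both replicates for 22 of the 24 loci, which the rule for naming favours. In replicate 1 the grey bar is the longer one for 7 of the 12 lowest loci, with no share over all genes given.

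The separate-channel fit gave 0 genes called between 6 h and 3 h in the stressed channel, with 361 (6.07%) at an unadjusted p under 0.05. In the control channel it gave 0 called and 104 (1.75%).

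Genes called against the control at 3 h or 6 h were next followed across the step. They were chosen by ratios that also form the difference, so their differences are a description with no test, and a ratio nearer to 0 at the time without a call is favoured by the choice. The 135 genes higher at both times had a median log2 ratio of 1.60 at 3 h and 1.62 at 6 h, with a median difference of 0.01 (quartiles -0.28 and 0.22). The 58 genes lower at both times had medians of -1.07 and -1.15 and a median difference of -0.13. The median difference over all genes tested was -0.03. Of the 135 genes higher at both times 70 had a difference above 0, and of the 58 lower at both times 23 did. At the median, the ratios of the genes called at both times were about as large at 6 h as at 3 h. Choosing genes called on the same side at both times favours this.

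The 108 genes higher at 3 h and not at 6 h went from a median of 0.96 to 0.37. Their median difference was -0.40 in replicate 1 and -0.80 in replicate 2. The 136 genes higher at 6 h and not at 3 h went from 0.46 to 0.94, with median differences of 0.60 and 0.39. They were thus already above the control at 3 h at the median. The 66 genes lower at 3 h and not at 6 h went from -0.86 to -0.31. The 105 genes lower at 6 h and not at 3 h went from -0.40 to -0.96, with median differences of -0.38 in replicate 1 and -0.82 in replicate 2. In the late-lowered set the median channel differences were -0.47 for the stressed RNA and 0.15 for the control, and in the late-raised set 0.48 and -0.06.

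**Figure D5:**
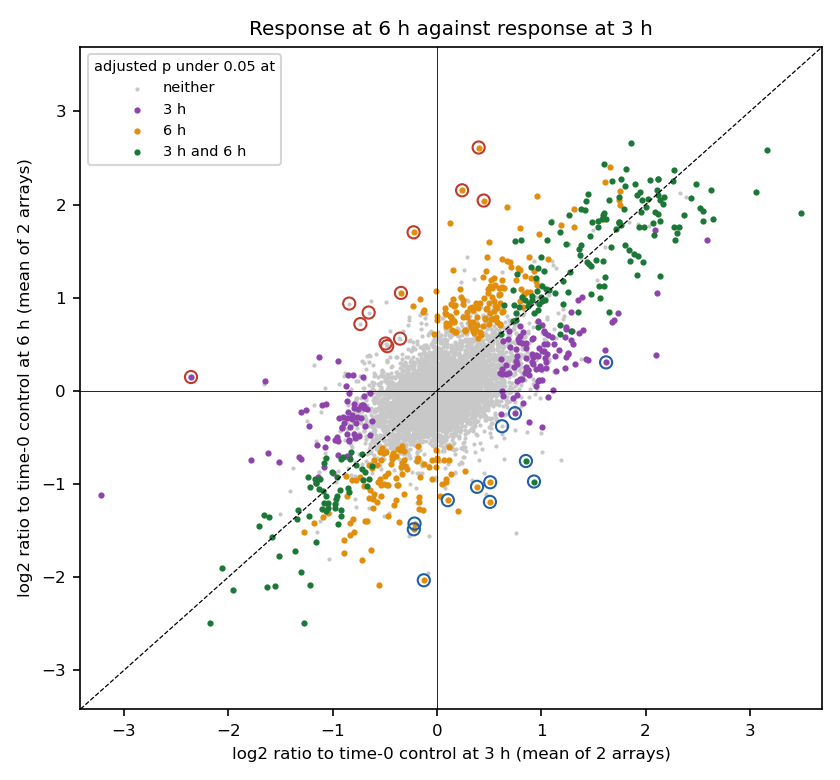
Mean log2 ratio to the time-0 control at 6 h (vertical axis) against that at 3 h (horizontal axis), 1 point per gene tested, coloured by the times at which limma called the gene, with red and blue rings on the 12 highest and 12 lowest named loci. Genes called at both times scatter around the dashed line of equal ratios, some of them well off it, and the ringed loci lie away from it on both sides.

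Some genes called at both times had large differences, and those given here were picked after their values were seen. DEHA2G17820g, the gene with a locus name that was highest at 3 h, had ratios of 3.41 and 3.57 there and of 1.46 and 2.36 at 6 h. The difference was -1.58 ± 0.34 (SE), with an adjusted p of 0.433 in limma, but its other probe gave -0.49 in replicate 1 and 0.84 in replicate 2. The direction for this locus is therefore uncertain. DEHA2C03476g rose by 1.59 and 2.14 over the control at 3 h and by 2.51 and 2.80 at 6 h, and DEHA2B12188g by 0.57 and 0.93 and then by 1.68 and 1.55. Their differences were 0.79 ± 0.25 and 0.86 ± 0.23 (SE). On the lower side, DEHA2F27104g had ratios of -1.12 and -1.42 at 3 h and of -1.80 and -3.19 at 6 h, and its other probe gave a like difference of -1.27. DEHA2F24860g went from -1.13 and -1.30 to -2.23 and -1.93, with the other probe at -1.03. With median centring the differences were -0.58 for DEHA2F27104g and 0.18 for DEHA2F24860g, the latter with the sign turned, and 1.21 and 1.36 for DEHA2C03476g and DEHA2B12188g. None of these differences passed, with adjusted p-values between 0.433 and 0.507 in limma.

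DEHA2G18348g shows how far the replicates could part. Its ratios were -3.82 and -2.61 at 3 h, the lowest of the genes with a locus name called at 3 h, and 0.20 and -2.43 at 6 h. The locus was thus back at the control level in replicate 1 and still low in replicate 2, and the other probe gave differences of 3.92 and -0.21. Its mean difference of 2.10 ± 0.76 (SE) had an adjusted p of 0.507.

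The genes at an unadjusted p under 0.05 were spread over the 7 chromosomes A to G of the reference table. The median difference per chromosome lay between -0.05 and -0.01. The share of genes higher at an unadjusted p under 0.05 ran from 2.88% on chromosome A to 5.02% on chromosome C, and the share of lower genes from 4.17% on chromosome E to 7.30% on chromosome B. Of the genes tested, 5120 had a locus name and so a chromosome.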

How the data were processed

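Spot intensities and log10 ratios of processed red over green signal were deposited as the output of the scanner software (Feature Extraction 9.1.3.1 by the headers). A deposited table gives 1 value per gene and array. These deposited values were set against log2 stress over control ratios made from the scanner signals. Those ratios were loess-normalized without background correction and averaged over a gene's probes. The 2 correlated at r from 0.988 to 0.996 per array, and the deposited column medians ran from -0.0109 to 0.0106. No other processing was correlated with the deposited values, so their exact processing is not settled. The submitters' processing notes name limma, with settings not given in the sources used here. The authors worked with median intensities, per the labels. Here these were corrected by normexp (offset 50) and loess-normalized with limma 3.58.1 under R 4.3.3. Control spots had no weight in the loess fit, and 18 outlier-marked values were left out. No value was saturated. Probes were kept if well above background in 2 or more of the 12 channel readings (11721 probes), and the brighter probe stood for a gene. The contrast 6 h minus 3 h came from a single fit over all 6 arrays with a coefficient per time (lmFit, eBayes, Benjamini-Hochberg). Channel signals were taken after Aquantile normalization, and the separate-channel fit used statmod 1.5.0. The fit was tested on simulated data with independent noise on each array, which leaves out any correlation between arrays of the same replicate number. Fold changes on this scale understate changes of dim genes, because of the offset.

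Each replicate number goes with 1 dye orientation in the labels. The fit above has no term for it, and a fit with the number as a block was an alternative. The deviations of arrays with the same number correlated at 0.37 (3 h with 6 h), 0.31 (0.5 h with 6 h) and 0.19 (0.5 h with 3 h). Locus names came from the reference table of assembly ASM644v2 by unversioned accession, for 5348 of 6320 genes. The build of the probes is not stated, and coordinates were left out. Named loci were the 12 highest and 12 lowest by moderated statistic among genes with a locus name, 2 probes used and like signs in both replicates and on both probes. None has a probe sharing 40 or more bases with a probe of another gene. Members, lists and rules were chosen with earlier results of these data known. The labels call the dye swaps different biological replicates but do not tell which arrays share a culture, so p-values measure the spread between these arrays, whose small number limits the precision.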

Additional observations from a re-analysis of the deposited data

How the results depend on the processing

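Among the alternative settings, using the arrays of 3 h and 6 h alone and leaving out either 0.5 h array gave identical results. The number of genes called between 6 h and 3 h stayed at 0 in 17 of 19 alternative settings. It was 1 with the dimmer probe of each gene (DEHA2F03806g, log2 difference 2.31, adjusted p 0.040 in limma). When 1 array was left out it lay between 0 and 1, the 1 being DEHA2F23870g without replicate 1 of 3 h (-3.37, adjusted p 0.0127). With the replicate block the count was 0 (smallest adjusted p 0.136), so the block changed no call of this difference. At an unadjusted p under 0.05, the count of 577 became 870 with the block, 1168 without replicate 1 of 3 h, 331 without replicate 1 of 6 h, 404 with the strictest filter on dim probes and 361 with the stressed channels alone. Of the 24 named loci, 23 kept their direction in every setting that gave them a value, but not their size. The rule for naming favours this, since it asks for like signs in both replicates and on both probes. Settings that change only the estimate of the spread leave the difference as it was and cannot turn it. Median centring brought DEHA2G03740g to -0.17, DEHA2F01804g to -0.40, DEHA2E10010g to -0.48, DEHA2E18568g to -0.74, DEHA2D10076g to -0.75, DEHA2C07216g to -0.85 and DEHA2B01078g to -1.0, and raised DEHA2F01694g to 1.81 and DEHA2A08800g to 2.47. DEHA2C03630g turned to 0.24. With that centring DEHA2G17820g and DEHA2F24860g came to 0.10 and 0.18, and the dimmer probe gave 0.17 for DEHA2G17820g. The SD across genes of the control-channel difference, 0.45 as the mean of both replicates, was 0.38 with no background correction and 0.83 with the processed signals. The causes were not tested.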

Other observations

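Over 4330 pairs of adjacent loci on the chromosomes the 6 h minus 3 h differences correlated at r = 0.005, given as a description.

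The 2 loci called in 1 alternative setting each were picked after their values were seen. DEHA2F03806g had log2 ratios of -1.25 and -1.01 on the 3 h arrays of replicates 1 and 2 and of 0.19 and 0.53 on the 6 h arrays. Both probes gave a higher ratio at 6 h in both replicates, with 1.44 and 1.54 for the brighter probe and 2.08 and 2.55 for the dimmer one, and the adjusted p of the brighter probe was 0.433 in limma. Its stressed channel had differences of 1.41 and 1.47, against -0.02 and -0.07 in the control channel. DEHA2F23870g had ratios of -0.25 and 2.63 at 3 h and of -0.81 and -0.67 at 6 h. Its high value at 3 h stood on the replicate 2 array alone, and the dimmer probe gave differences of -0.33 in replicate 1 and 0.02 in replicate 2.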
